A study of Caenorhabditis elegans with 2 samples.

Results

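The 81 protein-coding genes of Caenorhabditis elegans whose symbols begin with rpl-, rps- or rla- were taken by symbol from 19985 protein-coding genes in the Ensembl annotation of WBcel235. These symbols are given to cytosolic ribosomal protein genes, and whether each product is part of the ribosome was not checked. The 81 genes were examined for chromatin immunoprecipitation sequencing (ChIP-seq) peaks of NHR-76, a nuclear hormone receptor. The material was mixed-stage embryos of strain OP203, pooled over both sexes, which carries unc-119(ed3) on chromosome III and the integrated transgene wgIs203 that supplies NHR-76 with a C-terminal GFP-FLAG tag. Both libraries, biological replicates 1 and 2, belong to 1 group, so no second condition is compared, and chromatin of whole embryos cannot show in which cells a site was bound. The tagged copy adds to any NHR-76 made from the native gene.

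A ribosome has a large subunit, where peptide bonds are formed, and a small subunit, which reads the messenger RNA. Its proteins are needed in nearly equal amounts in every growing cell, and their genes are among the most highly transcribed. By symbol, 50 of the 81 genes were counted as large subunit genes, among them the 3 rla- genes for the acidic stalk proteins, and 31 as small subunit genes. Many C. elegans transcripts receive a spliced leader that replaces their original 5′ part, so an annotated 5′ end may lie downstream of the place where transcription begins, which was not measured here.

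The peaks are the authors' calls on the ce11 assembly. The pooled list, made from both replicates together, held 30000 candidates (peaks and background), with signal values from 2.82 to 442 and a median of 4.31. The replicate 1 list held 7516 peaks and the replicate 2 list 30000, and the final list, derived by the authors from these 3 lists and labelled as IDR-thresholded (irreproducible discovery rate), held 140. A gene was counted where a summit lay within 1000 bp of one of its transcript 5′ ends, and its highest signal value was kept. Ranks count from 1 at the highest signal of a list. Signal values have no stated scale and are compared only within a list, and the read depth behind them is unknown.

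The sequences under 7 candidates of rank 1000 or better are shown, so that windows with and without shared short words can be compared. Their summits lay upstream of the gene, outside annotated exons. The summits at rpl-14, rps-6, rps-19 and rpl-1 were also upstream, in intergenic sequence, but are left out. The 7 windows shown thus do not cover all 15 candidates of that rank, nor all upstream ones. Each window spans 50 bases on either side of the summit, written 5′ to 3′ on the strand of the ribosomal protein gene, from the RefSeq sequence of WBcel235. They are chrIV:1659217-1659317 for rps-28, chrIII:7854649-7854749 for rpl-35, chrIII:3867511-3867611 for rpl-3, chrIV:4750020-4750120 (minus strand) for rpl-20, chrIII:4475615-4475715 for rps-1, chrIV:654885-654985 (minus strand) for rpl-15 and chrX:2242960-2243060 (minus strand) for rpl-11.2. Capitals mark the words AAGTGTA and CTACGGT, chosen after the windows were seen, and GGGCGG and GAGAGA, each on either strand.
rps-28: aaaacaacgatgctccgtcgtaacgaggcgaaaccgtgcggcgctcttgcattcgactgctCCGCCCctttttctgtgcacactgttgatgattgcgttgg
rpl-35: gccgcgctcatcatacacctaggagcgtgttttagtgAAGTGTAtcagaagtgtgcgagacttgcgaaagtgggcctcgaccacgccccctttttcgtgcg
rpl-3: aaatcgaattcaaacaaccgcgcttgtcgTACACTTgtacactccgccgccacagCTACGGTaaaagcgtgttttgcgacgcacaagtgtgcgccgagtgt
rpl-20: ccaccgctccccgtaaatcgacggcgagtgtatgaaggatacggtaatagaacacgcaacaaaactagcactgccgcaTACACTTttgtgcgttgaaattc
rps-1: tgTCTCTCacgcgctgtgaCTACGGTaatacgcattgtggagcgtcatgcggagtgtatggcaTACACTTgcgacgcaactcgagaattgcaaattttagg
rpl-15: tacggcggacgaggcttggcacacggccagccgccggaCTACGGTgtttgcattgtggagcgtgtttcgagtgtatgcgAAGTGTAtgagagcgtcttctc
rpl-11.2: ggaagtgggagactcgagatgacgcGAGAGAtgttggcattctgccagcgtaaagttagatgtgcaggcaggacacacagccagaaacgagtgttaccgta

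These 7 windows had GC contents between 48.5% and 58.4%. AAGTGTA was in 5 of them (rpl-35, rpl-3, rpl-20, rps-1 and rpl-15) and CTACGGT in 3 (rpl-3, rps-1 and rpl-15). The windows at rps-28, the highest of all, and at rpl-11.2 held neither word. The window at rpl-12, not shown because it overlaps a UTR, held neither as well. Among all 15 candidates of rank 1000 or better, with 100 bases on each side of the summit, AAGTGTA was in 5 and CTACGGT in 6. Those on chromosome I, none of which is shown, held no AAGTGTA, so the 7 windows overstate its share.

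A final peak lay within 1000 bp of 5 of the 81 genes (6.17%, exact Clopper-Pearson interval 2.03% to 13.8%), against 0.681% of all protein-coding genes. Intervals here cover counting error over genes only. The 5 final peaks were at rps-28, rpl-35, rpl-3, rpl-20 and rpl-14, so 4 belong to the large subunit and 1 to the small. Their summits fell in a narrow range, from 288 to 435 bp upstream of the 5′ end, in intergenic sequence.

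The gene rps-28 encodes a protein of the small subunit head. Its candidate had a signal of 32.9 in the pooled list (rank 47), with a highest signal of 6.60 in replicate 1 (rank 153) and 24.0 in replicate 2 (rank 56). The summit, 424 bp upstream of rps-28, had replicate summits 0 and 1 bp away, so both libraries placed it at the same base or the next. For rpl-35, which encodes a protein near the exit of the peptide tunnel, the signal was 29.1 in the pooled list (rank 56), 5.32 in replicate 1 (rank 381) and 20 in replicate 2 (rank 74). Both replicates listed these peaks. Their ranks come from lists of unequal length and are not compared between replicates.

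The gene rpl-3 encodes a core protein that reaches towards the peptidyl transferase centre. It had 20.9 in the pooled list (rank 121), 6.09 in replicate 1 (rank 212) and 13.9 in replicate 2 (rank 206), with replicate summits 2 and 8 bp from the pooled one. A different picture was found at rpl-20, with 20.9 in the pooled list (rank 122) and 17.0 in replicate 2 (rank 121), while replicate 1 listed 0 peaks within 1000 bp and its nearest summit was 4451 bp away. Of the replicates only replicate 2 listed this peak, and what replicate 1 reads added to the pooled signal is unknown. The peak also lay nearer to another gene, 170 bp from the 5′ end of Y17G9B.5, than to rpl-20, with the summit at -292 bp (negative meaning upstream). The gene rpl-14 had 20.8 in the pooled list (rank 124), 4.59 in replicate 1 (rank 694) and 15.1 in replicate 2 (rank 161), with the summit 288 bp upstream.

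Just below the final set stood rpl-12 and rps-1. The gene rpl-12, for a protein at the base of the stalk, had 19.4 in the pooled list (rank 151), 6.37 in replicate 1 (rank 180) and 14.9 in replicate 2 (rank 169). Its summit was an exception in place, 10 bp downstream of a 5′ end, in the 5′ UTR. At rps-1, a small subunit gene, the pooled signal was 18.6 (rank 165), and its highest signal was 10.6 in replicate 1 (rank 45) and 14.1 in replicate 2 (rank 197). The value of replicate 1 was the highest of any ribosomal protein gene in that list. The replicate 2 summit nearest to the pooled one was 189 bp away, with a signal of 11.3, whereas that of replicate 1 was 5 bp away.

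Together 15 genes (18.5%, interval 10.7% to 28.7%) had a pooled candidate of rank 1000 or better, against 3.54% of all protein-coding genes. Besides the 7 above, the large subunit gave rpl-24.2 (signal 16.5, rank 214), rpl-27 (15.7, rank 241), rpl-15 (13.1, rank 384), rpl-11.2 (12.7, rank 424), whose human counterpart binds 5S rRNA, rpl-25.2 (11.8, rank 558) and rpl-1 (10.5, rank 851), the protein of the mobile L1 stalk. The small subunit gave rps-6 (15.3, rank 260), whose protein in mammals is the classical substrate of S6 kinase, and rps-19 (12.3, rank 484), whose human counterpart is mutated in Diamond-Blackfan anaemia. Among the 10 at rank 300 or better (12.3%, against 1.32% of all genes) were 7 large and 3 small subunit genes.

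The other 8 genes had lower pooled signals, and 2 of them lacked a replicate 1 peak. At rpl-24.2 the highest signal was 4.17 in replicate 1 (rank 1023) and 11.9 in replicate 2 (rank 347), and at rpl-15 it was 3.565 in replicate 1 (rank 1745) and 12.5 in replicate 2 (rank 285). The replicate 1 summit nearest to the pooled one at rpl-15 was another, 67 bp away, with a signal of 2.86 (rank 3357). For rpl-27 and rps-6 only replicate 2 listed a peak within 1000 bp, with 16.3 (rank 140) and 13.3 (rank 242). What replicate 1 reads added to these 2 pooled candidates is unknown. At rpl-11.2 the signal was 2.94 in replicate 1 (rank 3085) and 6.63 in replicate 2 (rank 3403), and at rpl-25.2 it was 3.36 in replicate 1 (rank 2114) and 7.13 in replicate 2 (rank 2621). Neither gene was among the first 1000 of a replicate list. At rps-19 the signal was 2.22 in replicate 1 (rank 6163) and 9.43 in replicate 2 (rank 848). At rpl-1 it was 4.345 in replicate 1 (rank 860) and 5.56 in replicate 2 (rank 6008), and no replicate 2 peak overlapped the pooled one.

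Several of these candidates could belong to a neighbour. The summit counted for rpl-27 was 5 bp from the 5′ end of egl-30, the Gq alpha subunit gene, and 773 bp downstream of that of rpl-27. Those at rps-6, rps-19 and rpl-1 were nearest to usp-3 (239 bp), hsr-9 (160 bp) and Y71F9AL.9 (95 bp). In 10 of the 15 genes (66.7%) the ribosomal protein gene had the nearest 5′ end, against 75.4% of the 707 genes of that rank. By chromosome, 7 of the 15 were on chromosome I, which holds 25 of the 81 genes, 4 of 18 on IV, 3 of 18 on III and 1 of 2 on X. Chromosomes II, with 10, and V, with 8, had 0. Shares over all genes of each chromosome were not counted, so no pattern by chromosome can be read from these counts.

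**Figure D1:**
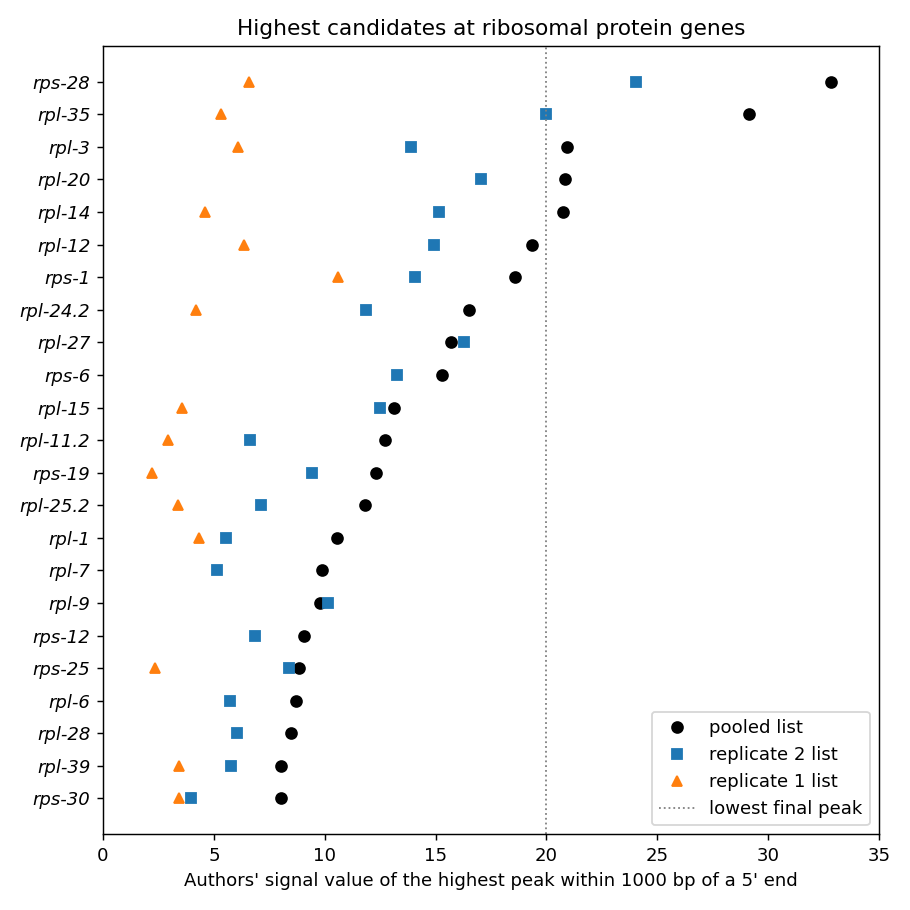
Authors' signal value (horizontal axis) of the highest peak within 1000 bp of a 5′ end at the 23 ribosomal protein genes with the highest pooled signal, in the pooled list (circles), replicate 2 (squares) and replicate 1 (triangles), with the lowest final signal as a dotted line. Pooled signals ran from 32.9 at rps-28 to 8.04 at rpl-39 and rps-30, and genes without a triangle, such as rpl-20, had no peak in the replicate 1 list.

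Candidates of any rank were found at most genes of the family. Of the 81 genes, 73 (90.1%, interval 81.5% to 95.6%) had at least 1 pooled candidate within 1000 bp, against 54.2% of all protein-coding genes. At rank 3000 or better stood 26 (32.1%, against 8.89%). The highest signal per gene had a median of 6.635 over the 73 genes (quartiles 4.63 and 8.83), with a median rank of 4806, against a median of 4.835 and a median rank of 11679 over the 10838 genes with a candidate. More than 1 candidate was found at 43 ribosomal protein genes (53.1%), against 19.0% of all genes, with a mean of 1.62 against 0.803 candidates per gene. The number of annotated 5′ ends was no higher, at a mean of 1.31 per ribosomal protein gene against 1.49 per gene overall. The length searched, which also depends on how far apart the ends of a gene lie, was not measured.

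**Figure D2:**
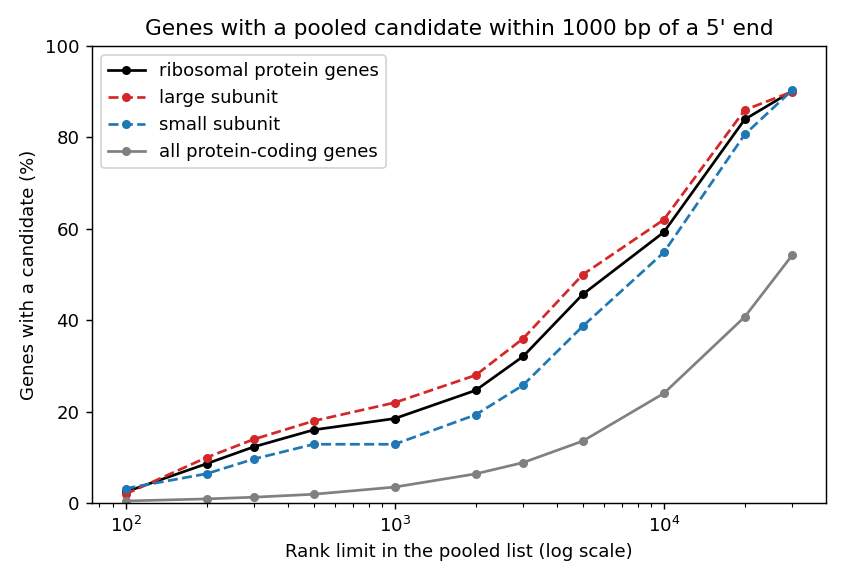
Share of genes (vertical axis, %) with a pooled candidate within 1000 bp of a 5′ end at or above each rank limit (horizontal axis, log scale), for all 81 ribosomal protein genes, the 50 large and 31 small subunit genes, and all 19985 protein-coding genes. The ribosomal protein line stands at 18.5% at rank 1000 and 90.1% at rank 30000, against 3.54% and 54.2% for all genes.

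The candidates gathered in one stretch upstream of the genes. Of the 73 highest candidates, 52 (71.2%, interval 59.5% to 81.2%) had their summit upstream of the nearest own 5′ end, against 53.25% of the highest candidates of all protein-coding genes. The median summit position was -285 bp, with quartiles of -375 and 80 bp, against a median of -46 bp over all genes. In the bin from 400 to 200 bp upstream lay 30 of 73 (41.1%), against 12.35% over all genes, and in the next from 200 bp upstream to the 5′ end 6 (8.22%), against 14.4%. Intergenic sequence held 49 of the summits, coding exons 14, introns 8 and 5′ UTRs 2. These classes were not counted over all genes, so the counts cannot be read as a trait of the family.

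How the ribosomal protein genes compared with the rest depended on the distance allowed. Within 200 bp of a 5′ end, 16 of the 81 genes (19.75%, interval 11.7% to 30.1%) had a pooled candidate, against 18.9% of all protein-coding genes, a share inside that interval. Within 500 bp it was 58 (71.6%, interval 60.5% to 81.1%), against 36.7%. At rank 1000 or better, where 12 of the 15 summits were upstream (80.0%), the share over all genes was 74.1%. The median position at that rank was -292 bp at ribosomal protein genes, against -207 bp over all genes.

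**Figure D3:**
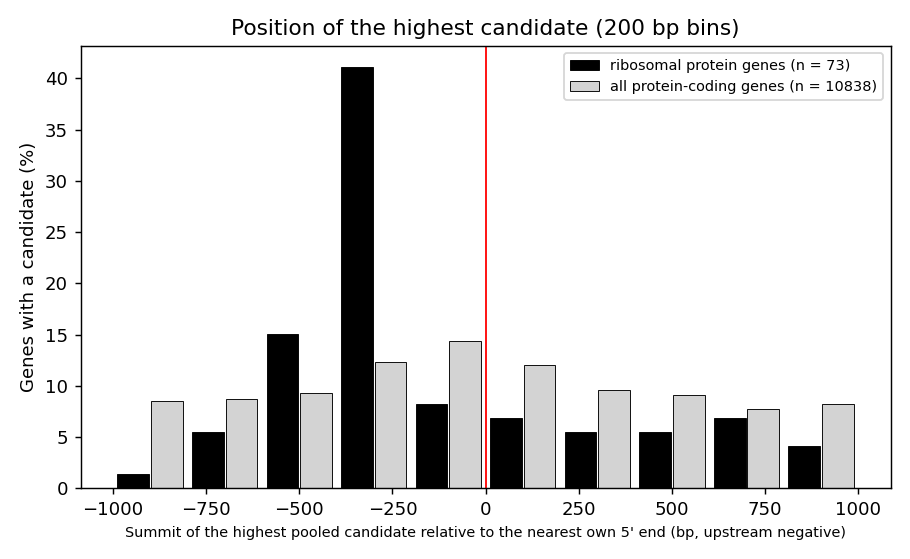
Position of the summit of the highest pooled candidate relative to the nearest 5′ end of the same gene (horizontal axis, bp, upstream negative, 200 bp bins), as a share of genes with a candidate (vertical axis, %), for 73 ribosomal protein genes and for 10838 protein-coding genes. The bin from 400 to 200 bp upstream holds 41.1% of the ribosomal protein genes and 12.35% of all genes.

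Ribosomal protein genes often have a close neighbour, and candidates of any rank were more frequent at genes with one. At rank 1000 or better and for final peaks, the ribosomal protein shares were lower with a neighbour, on few genes. Another protein-coding gene had a 5′ end within 1000 bp of that of 59 of the 81 genes (72.8%), against 25.5% of all genes. Where such a neighbour exists, 56 of 59 ribosomal protein genes (94.9%, interval 85.8% to 98.9%) had a pooled candidate, against 61.5% of all genes of that kind. Without one it was 17 of 22 (77.3%, interval 54.6% to 92.2%), against 51.7%. At rank 1000 or better the shares were 10 of 59 (16.95%) with a neighbour, against 6.46%, and 5 of 22 (22.7%, interval 7.82% to 45.4%) without one, against 2.54%. The split was chosen after seeing the data. A final peak stood at 2 of 59 ribosomal protein genes with a neighbour (3.39%), against 1.83% of all genes of that kind, and at 3 of 22 without one (13.6%), against 0.289%.

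Counting each candidate for the gene of the nearest 5′ end alone left 51 ribosomal protein genes (63.0%, interval 51.5% to 73.4%) with a candidate, against 48.8% of all protein-coding genes. At rank 1000 or better this count gave 10 ribosomal protein genes (12.35%, interval 6.08% to 21.5%), against 2.71% of all genes. The ribosomal protein gene had the nearest 5′ end at 41 of the 73 highest candidates (56.2%), against 85.6% over all genes. In 3 cases a candidate served 2 ribosomal protein genes, so the 73 genes had 70 distinct candidates. The pair rpl-39 and rps-30 shared 1 of signal 8.04 (rank 2476) on chromosome V at 7776165 to 7776504, 256 bp and 243 bp upstream of the genes. The pair rpl-24.1 and rps-10 shared 1 of 7.275 (rank 3536), and rpl-36 and rps-14 1 of 5.58 (rank 8137). Each pair joins a large and a small subunit gene, with the summit upstream of both.

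**Figure D4:**
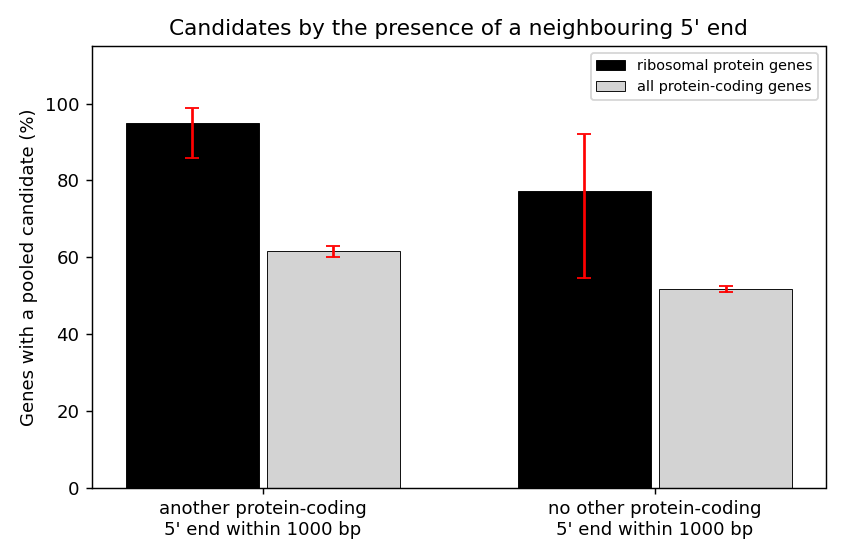
Share of genes with a pooled candidate within 1000 bp of a 5′ end (vertical axis, %), split by whether another protein-coding gene has a 5′ end within 1000 bp, for ribosomal protein genes and all protein-coding genes, with exact 95% intervals over genes as error bars. With a neighbour the bars stand at 94.9% and 61.5%, and without one at 77.3% and 51.7%.

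Large and small subunit genes were alike in how many had a candidate, with 45 of 50 (90.0%, interval 78.2% to 96.7%) and 28 of 31 (90.3%, interval 74.2% to 98.0%). Over all protein-coding genes the share was 54.2%. At rank 1000 or better stood 11 large subunit genes (22.0%, interval 11.5% to 36%) and 4 small subunit genes (12.9%, interval 3.63% to 29.8%), and the intervals overlap widely. Of all protein-coding genes 3.54% had a candidate of that rank. The median of the highest pooled signal was 6.695 for the large and 6.04 for the small subunit. In replicate 1 the median was 3.51 for the large and 2.99 for the small subunit, while a peak was listed at 18 of 50 large (36%, interval 22.9% to 50.8%) and 16 of 31 small subunit genes (51.6%, interval 33.1% to 69.85%). A replicate 1 peak was listed at 18.1% of all protein-coding genes. The summit was upstream in 36 of 45 large subunit genes (80.0%, interval 65.4% to 90.4%) and in 16 of 28 small subunit genes (57.1%, interval 37.2% to 75.5%), with intervals that overlap again. The share over all protein-coding genes with a candidate was 53.25%, inside the small subunit interval and below the large subunit one. No test was made of these differences.

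The 3 stalk genes had candidates with signals below the family's median of 6.635. The signals were 5.06 at rla-2 (rank 10482), 4.08 at rla-1 (rank 16828) and 3.91 at rla-0 (rank 18277). Only replicate 1 listed a peak within 1000 bp of rla-2 (2.72), and only replicate 2 did so for rla-1 (2.93) and rla-0 (4.78).

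Replicate 1 listed a peak within 1000 bp of 34 of the 81 genes (42.0%, interval 31.1% to 53.5%), against 18.1% of all protein-coding genes. Replicate 2 listed one for 70 (86.4%, interval 77.0% to 93.0%), against 52.5%. Both did for 27 (33.3%, interval 23.2% to 44.7%), against 12.5%. The lists differ in length, so the shares of the replicates cannot be set against each other. Over the 27 genes the highest signals of the replicates had a Spearman rho of 0.49, given as a description, since both values come from the same windows.

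Overlap with replicate peaks at the same place was more frequent among the top candidates than below them. Of the 15 at rank 1000 or better, 12 were overlapped by a replicate 1 peak (80.0%), 14 by a replicate 2 peak (93.3%) and 11 by both (73.3%), against 59.3%, 98.7% and 58.1% of all 1000 pooled candidates of that rank. Replicate 1 gave no overlap at rpl-20, rpl-27 and rps-6, and replicate 2 none at rpl-1. For the other 58 genes 14 candidates were overlapped by a replicate 1 peak (24.1%), 42 by a replicate 2 peak (72.4%) and 7 by both (12.1%), against 16.8%, 69.2% and 9.31% of all 30000 pooled candidates. Neither replicate overlapped 9 of the 73 candidates (12.3%), against 23.4% of all pooled candidates. The pooled sets hold every candidate wherever it lies, while the ribosomal protein sets hold the highest within 1000 bp of each gene. All 30000 also include the first 1000. The sets are unlike, so these shares do not show better replicate support for the family. A gene with a marked value in replicate 1 outside the top was rps-21, with 6.70 there (rank 142) and 7.52 in the pooled list (rank 3175). These 2 values belong to different places. The replicate 1 summit was 406 bp from the pooled one, and no replicate 1 peak overlapped the pooled candidate. The gene was chosen after its values were seen.

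**Figure D5:**
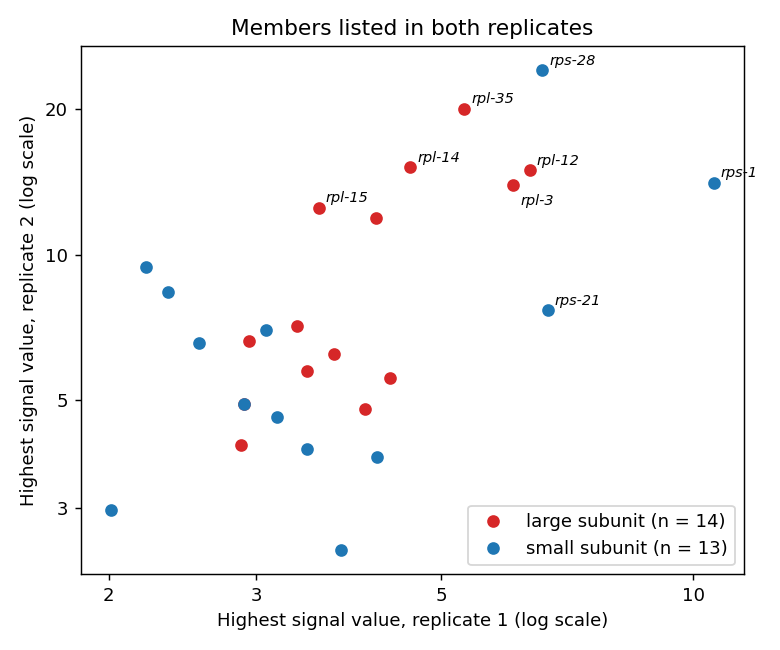
Highest signal value within 1000 bp of a 5′ end in replicate 1 (horizontal axis, log scale) and replicate 2 (vertical axis, log scale) for the 27 ribosomal protein genes listed in both, 14 of the large and 13 of the small subunit. The gene rps-28 has the highest replicate 2 value, 24.0, and rps-1 the highest replicate 1 value, 10.6.

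Below rank 1000 the next genes were rpl-7 (signal 9.86, rank 1105), rpl-9 (9.795, rank 1137), rps-12 (9.08, rank 1522), rps-25 (8.83, rank 1700) and rpl-6 (8.72, rank 1801), followed by rpl-28 (8.49, rank 2017) and the shared candidate of rpl-39 and rps-30. The remaining 50 genes with a candidate had signals from 2.91 at rpl-29 to 8.02 at rps-5. The summit near rpl-9 was also 258 bp from the 5′ end of lpd-7, a ribosome biogenesis gene. No pooled candidate was listed for 8 genes. Of these, rpl-16 (2.57), rpl-26 (2.55), rpl-42 (2.95), rps-7 (4.60) and rps-17 (3.78) had a peak in the replicate 2 list alone, and rps-9 (2.74) in that of replicate 1 alone. For rpl-37 and rpl-41.1 none of the 3 lists held a peak within 1000 bp.

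Small nucleolar RNA (snoRNA) genes, whose RNAs guide modification of ribosomal RNA, are often housed in introns of ribosomal protein genes. Here 13 of the 81 genes (16.05%) contained 19 snoRNA genes, all on the host's strand, against 0.961% of all protein-coding genes with any inside. A snoRNA gene lay within 500 bp of the summit of the highest candidate at 9 of 73 ribosomal protein genes (12.3%), against 0.812% over all genes. The signals of these 9 lay between 3.30 and 9.08, and none had a rank of 1000 or better. The highest were at rps-12 (signal 9.08, F54E7.10 at 259 bp) and at rpl-24.1 and rps-10 (7.275, D1007.20 at 381 bp). They went on with rpl-7A (6.21, Y24D9A.9 at 321 bp) and rps-26 (6.17, F39B2.14 at 53 bp). The rest were rpl-4 (4.27, B0041.9 at 468 bp), rla-1 (4.08, on Y37E3.22), rps-13 (3.50, on C16A3.11) and rps-29 (3.30, B0412.6 at 444 bp).

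Of the 15 at rank 1000 or better, 0 had a snoRNA gene within 500 bp, which with 15 genes allows a share of up to 20%, against 3.395% of the 707 genes of that rank. The closest was rpl-15, 574 bp from K11H12.13 in its own intron. Of the 13 host genes, 12 had a pooled candidate and 6 had their highest one within 500 bp of a snoRNA gene they house. A tRNA gene lay within 1000 bp of 0 of the 73 summits, which allows up to 4.11%, against 1.42% over all genes.

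The 250 bases before the 5′ end of each gene were searched for 10 words on both strands. The nuclear receptor half-site AGGTCA was in 1 of 81 ribosomal protein promoters (1.23%), against 7.11% of 19984 promoters, and AAGTCA in 8 (9.88%), against 11.1%. The intestinal GATA site TGATAA was in 23 (28.4%), against 26.8%. TATAAA was in 22 (27.2%, against 35.2%), GAGAGA in 13 (16.05%, against 19.1%), TTTTTTTT in 14 (17.3%, against 31.0%) and GGGCGG in 2 (2.47%, against 6.94%). CACGTG and CTGCGTCT were in 0, against 4.94% and 3.31%. TTTCAG, the consensus of the worm splice acceptor, was in 54 (66.7%), against 42.6%. AGGTCA and AAGTCA share their last 4 letters. A match is a description of the letters and not a binding site.

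Since most summits lay beyond 200 bp upstream, windows of 100 bases on each side of the highest summit were also searched, a choice made after seeing the data. AGGTCA was in 0 of 73 windows, which allows up to 4.11%, against 5.44% of the windows of all 10838 genes with a candidate, and TGATAA was in 6 (8.22%, against 16.9%). CTACGGT was in 11 (15.1%), against 1.21%, and AAGTGTA in 6 (8.22%), against 2.71%. In the 250-base promoters CTACGGT was in 2 of 81 (2.47%), against 1.32%, and AAGTGTA in 2 (2.47%), against 4.03%. Among the 15 windows at rank 1000 or better CTACGGT was in 6 (40.0%), against 2.69% of 707, and AAGTGTA in 5 (33.3%), against 3.54%. Besides the sequences shown above, CTACGGT was also near the summits at rpl-14, rpl-27 and rpl-11.2 among the 15, and at rpl-6, rpl-43, rpl-36.A, rpl-22 and rpl-33 below them, and AAGTGTA at rpl-5. As both words were read off some of the same windows, these shares describe them and test nothing. The median GC content of the windows was 42.8%, against 38.3%, and at rank 1000 or better 44.8%, against 43.8%, so the GC gap was smaller among strong candidates.

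Other genes tied to translation were counted in the same way. Over all protein-coding genes the shares were 54.2% with a pooled candidate, 3.54% at rank 1000 or better and 0.681% with a final peak. Of 42 translation factor genes, 33 had a pooled candidate (78.6%), 7 at rank 1000 or better (16.7%), with a median signal of 5.87 and 2 final peaks, at the release factor gene erfa-3 (38.9, rank 31) and at iff-2 (23.6, rank 90), a gene for eIF5A. The 70 mitochondrial ribosomal protein genes gave 55 (78.6%), 3 at rank 1000 or better (4.29%) and 0 final peaks, with a median signal of 4.92, near that of all genes. Of 31 aminoacyl-tRNA synthetase genes 23 had a candidate (74.2%) and 2 were at rank 1000 or better (6.45%), among them the final peak of ears-2 (82.8). The 34 genes of ribosome biogenesis and RNA polymerase I gave 24 (70.6%) and 2 at rank 1000 or better (5.88%), nog-1 (11.8) and fib-1 (10.8), the fibrillarin gene. Ribosome parts whose symbols fall outside the rule stood below rank 1000. The signal was 9.71 at ubq-2 (rank 1172), which encodes ubiquitin fused to a large subunit protein, 8.83 at rack-1 (rank 1702), a scaffold on the small subunit, and 4.06 at ubl-1 (rank 16961), a ubiquitin-like fusion to a small subunit protein. At rank 1000 or better, translation factor genes (16.7%) stood near the ribosomal protein genes (18.5%). At rank 3000 or better the shares were 33.3% and 32.1%. A high share of top candidates was thus not particular to the ribosomal protein genes. No test was made between these lists.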

How the data were processed

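Both ChIP-seq libraries of tagged NHR-76 form 1 group. Per the deposited README texts, each candidate list was made from 1 replicate's alignment, or from both pooled, against a control alignment, and the final list was derived from these 3 lists. No source used here names the aligner, the peak caller or the thresholds. Column 7 holds the authors' signal value per peak, of unstated scale. Column 9, the −log10 of the q-value in the deposited lists, was not used for ranking because 725 pooled candidates tie at its highest value. The ce10 lists were not used here.

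Summits were related to Ensembl release 115 transcript 5′ ends of WBcel235, the assembly of ce11, where 0 peaks passed a chromosome end. Lists, ranks and distances were handled in Python 3.11.15 with pandas 2.3.3, numpy 2.4.6 and scipy 1.17.1. Recovery of summit positions was checked on planted peaks. Genes are not replicates, so shares are given beside those of all protein-coding genes, with no test. Named genes are those with a final peak, the 20 highest and the 3 next, those of rank 1000 or better with peaks in both replicates, those near a snoRNA gene and those without any peak. Other genes (the stalk genes, pairs that share a candidate, holders of the 2 words, rps-21, the ends of a range and genes listed in a replicate alone) were named after their values were seen. Members and lists were chosen with earlier results of these data known. Alternatives were other distances, rank limits, gene assignments and lists.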

Additional observations from a re-analysis of the deposited data

How the results depend on the processing

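Of 49 alternative values, 37 stayed near the reported ones, meaning within 1.5 times for a count and within the counting interval otherwise. For the large minus small subunit difference that interval was wide, from -9.34 to 24.45 percentage points. All of its alternatives fell inside, which says little about stability. Within 200 bp the count of genes with a pooled candidate was 16, that of rank 1000 or better 3 and that with a final peak 0. Most of the highest summits lay more than 200 bp from the 5′ end, upstream or downstream. With 1 replicate alone, the replicate 1 and replicate 2 lists gave 34 and 70 genes with a candidate, 8 and 14 genes of rank 1000 or better, median ranks of 2297.5 and 5716 in lists of unequal length, 3.22 and 5.29 times the share of all genes at that rank (5.2 times in the pooled list), and a large minus small subunit difference of 0.323 and 7.10 percentage points (9.10 in the pooled list). Limiting the pooled list to as many candidates as replicate 1 holds left 43 genes. At the top 300 candidates the ratio to all genes was 9.35, and the top 3000 held 26 genes. The share with a snoRNA gene near the highest candidate was 4.11% within 100 bp and 0% at rank 1000 or better. Genes without a neighbouring 5′ end, an alternative chosen after seeing the data, gave 17 of 22. Read depth is unknown, so an unlisted peak does not show that binding was absent.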
